A study of Mus musculus with 8 samples.

Results

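The Slc25 genes encode mitochondrial carriers, and 47 of them were read in mouse liver with or without the polycystin-family gene Pkd1l1. The carriers were chosen by name: protein-coding genes called Slc25a followed by a number, or Ucp1, Ucp2 or Ucp3, which gave 47 of the 27110 listed genes (Ucp1 is not analysed here). Of these, 44 had enough reads to test, and 16420 genes were tested in all. The livers were taken at week 7 and carry the treatment label NT. The control group, labelled Fl/Fl, held female replicates 5, 7 and 9 and male replicate 10. The group labelled LKO, a liver-restricted deletion of Pkd1l1 per the series title, held female replicates 3, 4, 12 and 13. The labels name neither the Cre driver nor the strain, and they do not say whether libraries came from separate animals, so p-values measure only the spread between these libraries. The comparison was LKO (n = 4) against female Fl/Fl (n = 3), with the male library under a sex term of its own.

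Most carriers sit in the inner mitochondrial membrane and exchange a metabolite of the matrix for one of the cytosol. They bring ADP and phosphate in for ATP synthesis, move ornithine and aspartate for the urea cycle, carry citrate out for lipid synthesis and acylcarnitine in for fatty acid oxidation, and supply the matrix with cofactors it cannot make. The uncoupling proteins are members that let protons leak back. Liver relies on many of these routes at once, because the urea cycle, gluconeogenesis and ketogenesis are each divided between matrix and cytosol.

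The ornithine carrier Slc25a15 and the NAD carrier Slc25a51 were higher in LKO than in female Fl/Fl livers, and they were the only 2 of the 44 tested carriers past an adjusted p of 0.05 with edgeR's quasi-likelihood test. That is 4.55% of the carriers tested, beside 1.41% of all genes tested. No carrier was lower past the threshold. Of the 44 fold changes, 30 were positive, with a median log2 of 0.16 (log2 -0.0032 over all genes tested). At an unadjusted p under 0.05 there were 12 carriers, 11 higher and 1 lower, or 27.3% of the carriers (16.1% of all genes tested). LKO and female Fl/Fl values did not overlap for 10 carriers, 8 higher and 2 lower in LKO, or 22.7% (15.1% of all genes tested). Leaving out a control can only add to this count: without Fl/Fl 7 it was 19 of the 44 carriers (22.2% of all genes), and without Fl/Fl 9 it was 20 (32.7% of all genes). Calls were lost when certain single libraries were left out, among all genes too, of which 232 passed in the main fit. No carrier passed without Fl/Fl 5 (4 of all genes passed), Fl/Fl 7 (37), LKO 4 (47) or LKO 13 (58), or with no sex term (1). Passing were 1 carrier without LKO 12 (0.841% of all genes passed), 6 with DESeq2 (5.39% of all genes), and 7 without Fl/Fl 9 (4.34% of all genes). In bulk liver, fewer cells of a type and less RNA per cell cannot be told apart.

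Pkd1l1 itself was almost unread and could not check the genotype labels, with 0 to 1 reads in each Fl/Fl library and 0, 0, 0 and 2 in LKO 3, 4, 12 and 13. The libraries held 71491723 to 76622375 counted reads, so that 3 reads in a library were worth 0.0385 to 0.0428 CPM (counts scaled to library size). Library sizes for CPM were scaled by edgeR's trimmed mean method. Comparisons between genes use the authors' FPKM, which divides by gene length. The labelled cell types were hepatocytes and cholangiocytes. Hepatocyte markers summed to 123553 to 142908 CPM in the female libraries over 7 genes and cholangiocyte markers to 40.5 to 58.2 CPM over 6. The male library held 86291 CPM of hepatocyte markers and 43.8 of cholangiocyte markers. Its erythroid markers summed to 198 CPM, beside 52.6 to 90.4 in the female libraries. The part of this in its carrier values was not tested. The livers also differed in state. Log2 Arntl minus log2 Dbp, clock genes of opposite phase, was 2.91 to 4.80 in Fl/Fl 5 and 7 and LKO 3 and 4, and -3.38 to -1.60 in Fl/Fl 9 and 10 and LKO 12 and 13. Fos, an immediate early gene, measured 298 and 264 CPM in Fl/Fl 5 and 7, 30.7 in Fl/Fl 9, 4.78 in the male library and 4.87 to 12.7 in LKO. Jun held 583, 484 and 251 CPM in Fl/Fl 5, 7 and 9, 43.9 in the male library and 56.4 to 109 in LKO. Junb held 200, 175 and 163 CPM, 49.9 in the male library and 43.0 to 63.2 in LKO. Jun and Junb were lower in LKO past the threshold (edgeR adjusted p = 0.0369 and 0.00127). Among the female libraries this state cannot be told apart from genotype. The part of these differences in the results on carriers was tested only for the clock genes, as a covariate.

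**Figure D1:**
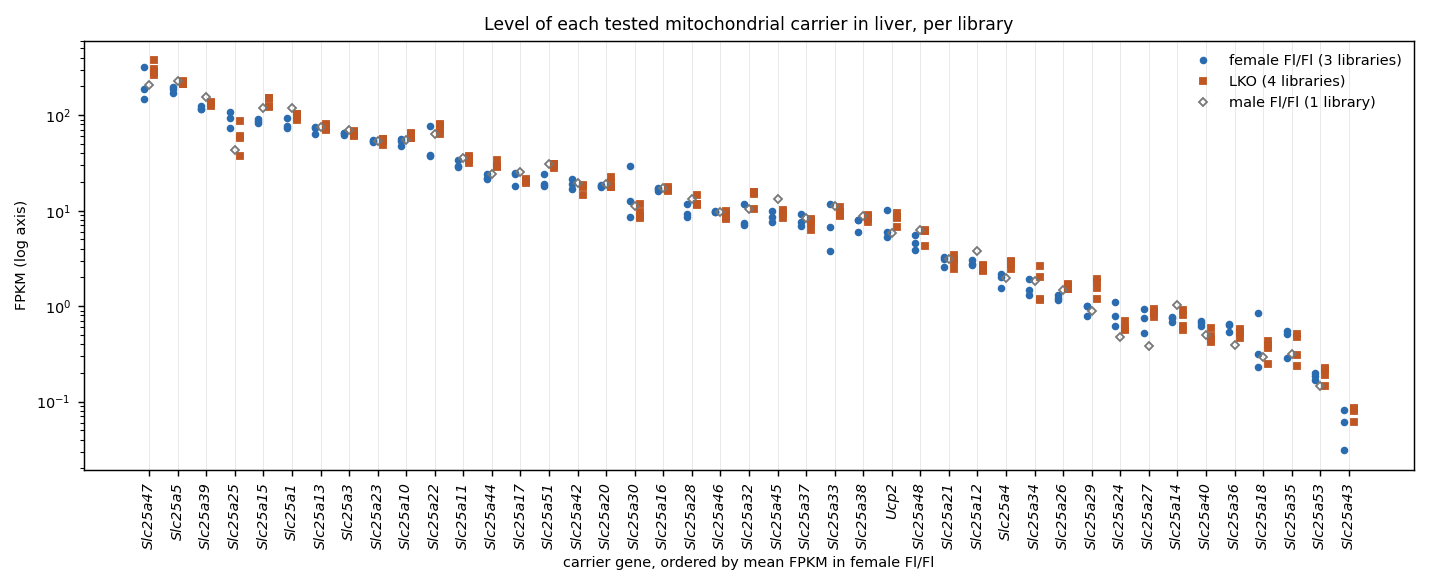
Level of the tested carriers reported here as deposited FPKM (log axis) in each library, ordered by the mean of the 3 female Fl/Fl libraries (circles), with the 4 LKO libraries as squares and the male library as diamonds (its 0 for Slc25a43 is not drawn). Slc25a47, which reaches 377 FPKM, and Slc25a5 lead, and Slc25a43, at no more than 0.0852 FPKM, is the lowest.

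Liver carrier RNA was concentrated in a few members. The 5 most abundant carriers took 51.4% to 54.9% of the summed FPKM in the female Fl/Fl libraries, 56.1% in the male library and 56.0% to 59.5% in LKO. Slc25a47, a liver-enriched carrier whose substrate is unsettled, had the highest mean in both groups, at 218 ± 89.8 FPKM in female Fl/Fl and 307 ± 49.4 in LKO (SD, n = 3 and n = 4, as for each such pair of values here). Next came Slc25a5, the main ADP/ATP exchanger of liver, at 186 ± 14.1 and 218 ± 8.94 FPKM. In female Fl/Fl the ranges of these leading members overlapped, since Slc25a47 ran from 147 to 319 FPKM and Slc25a5 from 170 to 198. Slc25a39, a glutathione carrier, was the third at 119 ± 4.96 FPKM in female Fl/Fl and lay below every Slc25a5 value. The summed FPKM of the 47 carriers was 1284, 1237 and 1473 in Fl/Fl 5, 7 and 9, 1481 in the male library and 1591, 1572, 1613 and 1475 in LKO 3, 4, 12 and 13. LKO libraries 3, 4 and 12 held the highest sums, while LKO 13 was level with Fl/Fl 9 and below the male library.

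At the other end, Ucp3, the uncoupling protein of muscle, had 10 reads over the 8 libraries. Slc25a2, a paralog of the ornithine carrier, had 59 and the germ line ADP/ATP exchanger Slc25a31 had 68. These 3 were not tested. Germ cell markers summed to at most 0.158 CPM and muscle markers to at most 0.561 CPM in any female library. Slc25a31 was at 0.107, 0.295 and 0.157 CPM in female Fl/Fl and 0 to 0.0829 in LKO, which rest on at most 23 reads a library.

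Carriers of amino acids held the first call. Slc25a15 (ENSMUSG00000031482, chromosome 8, 22375551 to 22398597, minus strand, mm10) brings ornithine into the matrix and citrulline out of it, and its loss causes a disorder of high ornithine and ammonia. It measured 471, 491 and 446 CPM in Fl/Fl 5, 7 and 9 and 811, 828, 658 and 672 CPM in LKO 3, 4, 12 and 13. The groups did not overlap, and within LKO replicates 3 and 4 were above 12 and 13. The male Fl/Fl library, at 636 CPM, lay between the groups. Slc25a15 rose 1.58-fold (log2 0.66 ± 0.11 SE, edgeR adjusted p = 0.0204). The log2 fold change was 0.69 with the clock genes as a covariate (adjusted p = 0.00754). The call was lost without Fl/Fl 5 (log2 0.66, adjusted p = 0.125), Fl/Fl 7 (0.69, 0.0707), LKO 4 (0.61, 0.0687) or LKO 13 (0.70, 0.0534), without Fl/Fl 5 and 7 together (0.73, 0.183), and when sex was left out of the model (0.54, 0.401).

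RefSeq (GRCm38.p6) lists 2 start sites of Slc25a15, and the windows from 250 bases before to 50 after each are shown because Slc25a15 had the smallest p of the carriers. Capitals mark CACGTG, the E-box letters that clock and other basic helix-loop-helix factors bind.
Slc25a15 upstream start, chr8:22398572-22398871, minus strand: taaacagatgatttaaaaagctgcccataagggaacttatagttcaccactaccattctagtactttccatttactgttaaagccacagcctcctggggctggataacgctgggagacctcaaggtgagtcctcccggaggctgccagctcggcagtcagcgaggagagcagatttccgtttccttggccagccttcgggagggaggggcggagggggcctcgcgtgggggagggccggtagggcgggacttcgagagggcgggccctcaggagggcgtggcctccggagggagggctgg
Slc25a15 downstream start, chr8:22398228-22398527, minus strand: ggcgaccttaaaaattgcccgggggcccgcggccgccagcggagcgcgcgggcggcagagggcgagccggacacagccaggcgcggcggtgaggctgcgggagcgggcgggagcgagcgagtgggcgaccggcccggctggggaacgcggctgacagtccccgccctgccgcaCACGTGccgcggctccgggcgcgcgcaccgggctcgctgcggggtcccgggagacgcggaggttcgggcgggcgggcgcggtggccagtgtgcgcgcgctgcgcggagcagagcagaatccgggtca
Searched on both strands were CACGTG, the cyclic AMP response element letters TGACGTCA, the AP-1 letters TGAGTCA, and the box CCAAT. The downstream window held CACGTG and the upstream window held none of the 4. CACGTG was in 8 of 47 windows of the 37 carriers matched (17.0%) and in 7.15% of all 32851 windows of the table. A match is a description of letters and no sign of binding.

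Slc25a44, which takes branched-chain amino acids into mitochondria, narrowly missed the threshold. It measured 74.2, 75.5 and 84.0 CPM in Fl/Fl 5, 7 and 9, 82.5 in the male library and 99.1, 116, 101 and 100.3 CPM in LKO 3, 4, 12 and 13. Every LKO value lay above every Fl/Fl value, the male one included (log2 0.42 ± 0.09, edgeR adjusted p = 0.0530). It passed in 4 alternatives, which were without Fl/Fl 9 (log2 0.47, adjusted p = 0.0231), with the clock genes as a covariate (0.42, 0.0494), with no filter on low counts (0.42, 0.0217) and with DESeq2 (0.42, 0.00497).

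Slc25a29, a carrier of lysine, arginine and ornithine, had a larger fold change at a far lower level. It was at 2.55, 2.01 and 2.52 CPM in Fl/Fl 5, 7 and 9, 2.25 in the male library and 4.86, 4.53, 3.96 and 3.01 CPM in LKO 3, 4, 12 and 13. The groups again did not overlap, with LKO 13 nearest to Fl/Fl (log2 0.79 ± 0.20, edgeR adjusted p = 0.0917). It passed with no filter on low counts (adjusted p = 0.0433) and with DESeq2 (0.00819). In the authors' deposited table Slc25a29 and Slc25a44 were the 2 carriers with an adjusted p under 0.05 (0.0149 and 0.0438). Slc25a15 stood at 0.0575 there (log2 0.53) and Slc25a51 at 0.482 (log2 0.37). The share of all genes under 0.05 in that table was not counted, so these 2 carriers have no background beside them. The fold changes in that table set LKO against all 4 Fl/Fl libraries, the male one included: the ratio of the deposited normalised means over those libraries gave them within 0.01 log2 in 99.9% of the 16423 genes whose mean reached 10. Per gene length, Slc25a15 exceeded Slc25a29 by 82.0 to 113 times in female Fl/Fl and by 77.0 to 103 times in LKO.

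Slc25a47 starts 163 bases from the start of Slc25a29 on chromosome 12 and runs the opposite way, so the RefSeq window of Slc25a29 covers the gap between them. It is shown with CCAAT or its reverse complement in capitals.
Slc25a29 start, chr12:108835827-108836126, minus strand: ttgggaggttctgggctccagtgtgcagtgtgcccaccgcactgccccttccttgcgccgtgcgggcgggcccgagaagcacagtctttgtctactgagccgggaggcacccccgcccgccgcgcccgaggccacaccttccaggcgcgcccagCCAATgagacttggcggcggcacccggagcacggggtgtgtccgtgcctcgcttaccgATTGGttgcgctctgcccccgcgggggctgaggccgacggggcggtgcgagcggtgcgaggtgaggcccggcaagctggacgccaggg
CCAAT was in 22 of the 47 carrier windows (46.8%) and in 37.4% of all windows. The pair differed in level by 184 to 316 times in female Fl/Fl, Slc25a47 being the higher.

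Among the remaining amino acid carriers, the glutamate carrier Slc25a22 differed widely among the Fl/Fl livers. Fl/Fl 5 and 7 held 217 and 225 CPM of it, with 445 in Fl/Fl 9, 364 in the male library and 457, 471, 407 and 370 CPM in LKO 3, 4, 12 and 13 (log2 0.53 ± 0.26, edgeR adjusted p = 0.372). Without Fl/Fl 9 its log2 fold change was 0.94 (adjusted p = 0.00216), and without Fl/Fl 5 and 7 it was -0.07. Its paralog Slc25a18 was below 1.6 CPM in each library, and Slc25a22 took 98.9% to 99.6% of the pair's FPKM in the female libraries. Reads of Slc25a18 overlap Atp6v1e1 on the other strand, which had 50299 reads against 433, so its values are uncertain.

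The aspartate/glutamate exchangers export aspartate for the malate-aspartate shuttle and for argininosuccinate synthesis. Citrin, Slc25a13, stood at 256 ± 23.9 CPM in female Fl/Fl and 274 ± 17.1 in LKO. Aralar, Slc25a12, was at 19.1, 19.8 and 21.3 CPM in Fl/Fl 5, 7 and 9 and at 16.8, 16.5, 19.0 and 18.9 in LKO 3, 4, 12 and 13. The ranges of Slc25a12 did not overlap but nearly met at LKO 12 and Fl/Fl 5, and the gene did not pass (log2 -0.17 ± 0.09, edgeR adjusted p = 0.397). Citrin took 95.4% to 96.5% of the pair's FPKM in female Fl/Fl, 95.2% in the male library and 96.4% to 97.1% in LKO. Slc25a38, which supplies glycine for heme synthesis, was at 19.4 ± 3.32 and 22.2 ± 1.75 CPM. Of the 8 amino acid carriers tested, 1 rose, 7 did not pass, and 6 fold changes were positive (median log2 0.31).

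**Figure D2:**
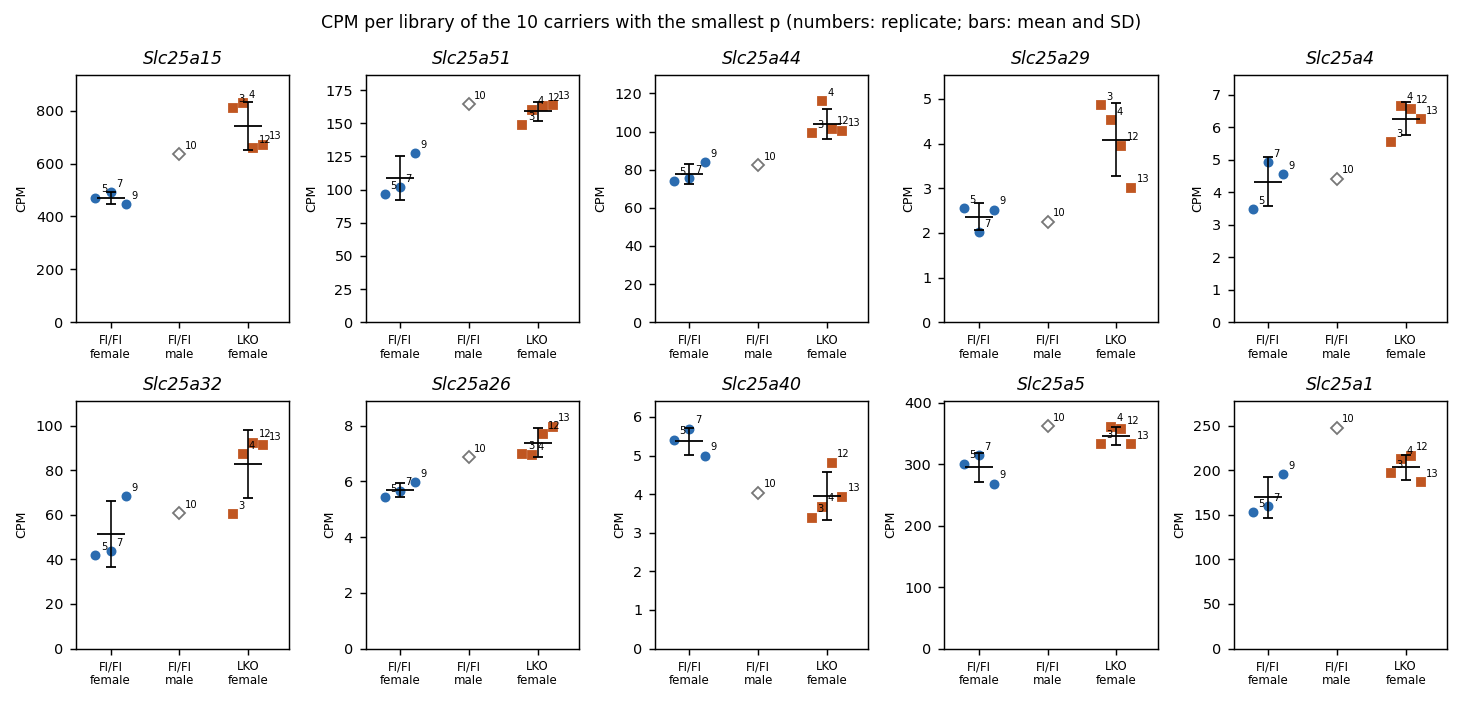
CPM (axes from 0) of the 10 carriers with the smallest p in each library: 3 female Fl/Fl (circles), 1 male Fl/Fl (diamond) and 4 LKO (squares), with the replicate number beside each point and bars for mean and SD. Slc25a15, Slc25a51, Slc25a44 and Slc25a29 show no overlap between female groups, while Slc25a32 and Slc25a1 do overlap.

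Carriers of cofactors, nucleotides and metals held the second call. Slc25a51 (ENSMUSG00000045973, chromosome 4, 45395923 to 45408766, minus strand, mm10) brings NAD into the matrix, where it serves the dehydrogenases. It measured 96.5, 102 and 127 CPM in Fl/Fl 5, 7 and 9 and 149, 160, 163 and 164 CPM in LKO 3, 4, 12 and 13. LKO and female Fl/Fl did not overlap, and Fl/Fl 9 was nearest to LKO. The male Fl/Fl library held 164 CPM, level with the highest LKO library. Slc25a51 rose 1.46-fold (log2 0.55 ± 0.11, edgeR adjusted p = 0.0369), with 0.53 under the clock covariate (adjusted p = 0.0217) and 0.38 when sex was left out of the model (0.601). The call was lost without Fl/Fl 5 (adjusted p = 0.205), Fl/Fl 7 (0.144), LKO 4 (0.126), LKO 12 (0.0808) or LKO 13 (0.103), at log2 fold changes of 0.47 to 0.55. Without Fl/Fl 5 and 7 together its log2 fold change was 0.31 (adjusted p = 0.426), and on log2(FPKM + 1) it was 0.54 (adjusted p = 0.0635).

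Slc25a32, the carrier of folate and flavin, had a fitted log2 fold change of 0.69 ± 0.21 (edgeR adjusted p = 0.168). Its values were 41.9, 43.8 and 68.4 CPM in Fl/Fl 5, 7 and 9, 60.6 in the male library, and 60.3, 87.3, 92.4 and 91.3 CPM in LKO 3, 4, 12 and 13. Fl/Fl 9 lay above LKO 3, so the groups overlapped. It passed without Fl/Fl 9 (log2 0.95, adjusted p = 0.0166), with DESeq2 (0.68, 0.0198) and with the clock covariate (0.64, 0.0419).

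Slc25a26, which imports the methyl donor S-adenosylmethionine, was at 5.43, 5.67 and 5.96 CPM in Fl/Fl 5, 7 and 9 and 6.97, 6.95, 7.70 and 7.96 CPM in LKO 3, 4, 12 and 13. The groups did not overlap (log2 0.38 ± 0.12, edgeR adjusted p = 0.171). Lrig1 overlaps it on the other strand with 22619 reads against 4001, and with no strand setting given for the counting, the values of Slc25a26 are uncertain. Slc25a40, a relative of the glutathione carrier, was the 1 carrier lower at an unadjusted p under 0.05. It measured 5.41, 5.69 and 5.0 CPM in Fl/Fl 5, 7 and 9, 4.04 in the male library and 3.38, 3.67, 4.81 and 3.93 CPM in LKO 3, 4, 12 and 13 (log2 -0.44 ± 0.16, adjusted p = 0.204). Slc25a39, its abundant partner, held 306, 332 and 309 CPM in Fl/Fl 5, 7 and 9, 411 in the male library and 364, 356, 361 and 330 CPM in LKO 3, 4, 12 and 13, with LKO 13 just below Fl/Fl 7 (log2 0.16 ± 0.08, adjusted p = 0.380). Per gene length Slc25a39 exceeded Slc25a40 by 172 to 188 times in female Fl/Fl and by 229 to 327 times in LKO.

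The mitoferrins bring iron in for heme and iron-sulfur clusters. Slc25a28, mitoferrin 2, stood at 14.4 ± 2.36 CPM in female Fl/Fl and 18 ± 2.20 in LKO, and Slc25a37, mitoferrin 1, which erythroid cells use most, at 46.1 ± 6.94 and 43.0 ± 4.6. Neither passed. Mitoferrin 1 took 49.95%, 44.4% and 39.3% of the pair's FPKM in Fl/Fl 5, 7 and 9 and 34.9% to 40.3% in LKO, which overlapped through Fl/Fl 9. Erythroid markers summed to 53.7 to 90.4 CPM in female Fl/Fl and 52.6 to 73.3 in LKO, and their part in mitoferrin 1 was not tested. The coenzyme A carrier Slc25a42 and its relative Slc25a16 were at 99.1 ± 10.6 and 78.1 ± 3.40 CPM in LKO and at 111 ± 13 and 77.1 ± 2.36 in female Fl/Fl. Slc25a36, a pyrimidine nucleotide carrier, was at 5.60 ± 0.57 and 4.85 ± 0.43 CPM. Of the 12 tested members of this class, 1 rose and 11 did not pass, with 8 fold changes positive (median log2 0.21).

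None of the 7 tested carriers of adenine nucleotides and phosphate passed (4 positive, median log2 0.01; edgeR, 2 at an unadjusted p under 0.05, and 1 past the threshold with DESeq2). Slc25a4, the ADP/ATP exchanger of heart and muscle, was scarce. It measured 3.48, 4.94 and 4.57 CPM in Fl/Fl 5, 7 and 9, 4.42 in the male library and 5.54, 6.67, 6.57 and 6.26 CPM in LKO 3, 4, 12 and 13. LKO lay above every Fl/Fl library, the male one included (log2 0.53 ± 0.16, edgeR adjusted p = 0.132), and it passed with DESeq2 (adjusted p = 0.0355). Slc25a5, 75.9 to 124 times as abundant per gene length in the female libraries, was at 301, 315 and 269 CPM in Fl/Fl 5, 7 and 9, 362 in the male library and 334, 361, 357 and 332 CPM in LKO 3, 4, 12 and 13. It also showed no overlap between female groups, at a smaller fold change (log2 0.23 ± 0.09, edgeR adjusted p = 0.241). Reads of the pseudogene Slc25a5-ps were few, 72 against 196649 of Slc25a5. The phosphate carrier Slc25a3, which delivers the other substrate of ATP synthase, was level at 343 ± 14.1 and 345 ± 18.1 CPM (log2 0.01 ± 0.09).

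The calcium-regulated ATP-Mg/phosphate carriers set the size of the matrix adenine nucleotide pool. Slc25a25 varied widely within both groups. It measured 712, 561 and 811 CPM in Fl/Fl 5, 7 and 9, 325 in the male library and 658, 454, 441 and 281 CPM in LKO 3, 4, 12 and 13. LKO 3 lay among the female Fl/Fl libraries, and the gene did not pass (log2 -0.60 ± 0.27, edgeR adjusted p = 0.335). Slc25a23 was level at 271 ± 6.79 and 274 ± 17.4 CPM. By FPKM Slc25a25 took 58.8% to 66.9% of the pair in female Fl/Fl, 44.3% in the male library and 39.7% to 61.8% in LKO. Slc25a24 was at 2.77 ± 0.81 and 2.02 ± 0.22 CPM. Slc25a17, which serves peroxisomes rather than mitochondria, was at 61.7 ± 10.9 and 56.3 ± 2.10 CPM.

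One of the 3 RefSeq start windows of Slc25a25 held TGACGTCA, the cyclic AMP response element, and is shown with it and with CCAAT in reverse complement in capitals.
Slc25a25, chr2:32424017-32424316, minus strand: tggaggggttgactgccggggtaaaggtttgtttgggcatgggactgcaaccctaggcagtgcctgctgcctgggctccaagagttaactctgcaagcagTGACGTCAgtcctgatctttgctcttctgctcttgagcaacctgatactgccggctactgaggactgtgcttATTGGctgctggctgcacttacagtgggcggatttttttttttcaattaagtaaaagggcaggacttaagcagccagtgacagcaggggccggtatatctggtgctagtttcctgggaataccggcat
TGACGTCA was in 2 of the 47 carrier windows, of Slc25a25 and Slc25a36, and in 1.79% of all windows. TGAGTCA or its reverse complement, the AP-1 letters, was in 1 carrier window, of Slc25a13, and in 5.20% of all windows.

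None of the 5 carriers of carboxylic acids and acylcarnitine passed (edgeR, 2 at an unadjusted p under 0.05, 0 with DESeq2), and 4 of the 5 fold changes were positive (median log2 0.17). Slc25a1 sends citrate to the cytosol for lipid synthesis. It was at 153, 160 and 196 CPM in Fl/Fl 5, 7 and 9, 247 in the male library and 197, 213, 216 and 187 CPM in LKO 3, 4, 12 and 13, with the male liver the highest of the 8 and Fl/Fl 9 inside the LKO range (log2 0.26 ± 0.11, edgeR adjusted p = 0.259). Slc25a10, which exchanges malate and succinate for phosphate, was at 175 ± 16.7 CPM in female Fl/Fl and 204 ± 14.7 in LKO (log2 0.22 ± 0.10, edgeR adjusted p = 0.301). The groups did not overlap but nearly met, at 189 CPM in Fl/Fl 7 and 191 in LKO 3. The oxoglutarate/malate exchanger Slc25a11, of the malate-aspartate shuttle, stood at 63.2 ± 6.06 and 71.0 ± 5.17 CPM. Slc25a20, which brings acylcarnitine in for fatty acid oxidation, stood at 84.5 ± 2.75 and 90.5 ± 9.79 CPM. The oxodicarboxylate carrier Slc25a21 was at 14.0 ± 1.71 and 14.0 ± 2.02 CPM.

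**Figure D3:**
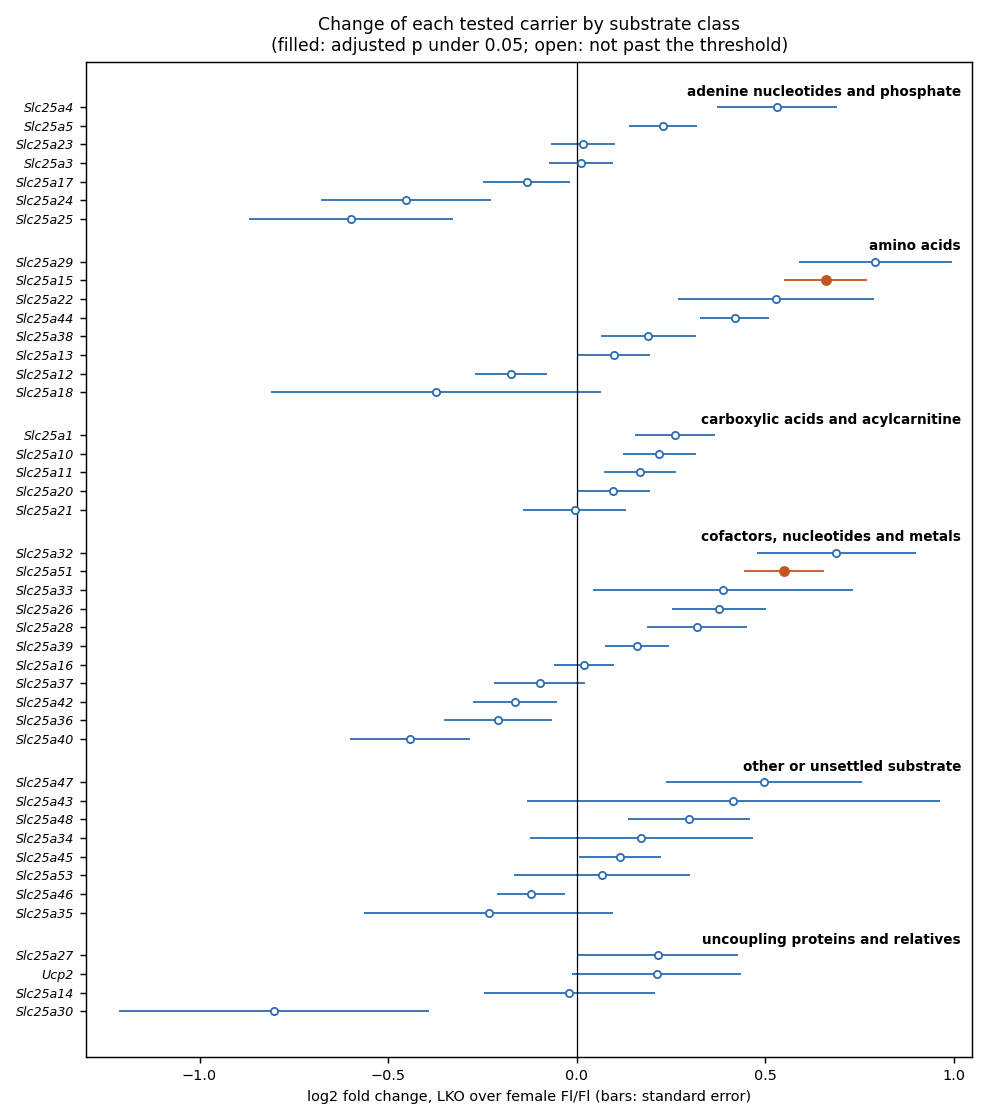
Fitted log2 fold change of LKO over female Fl/Fl with its standard error for the tested carriers reported here, grouped by substrate class. The filled points, Slc25a15 and Slc25a51, passed an adjusted p of 0.05, and most points lie right of 0.

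None of the 4 tested uncoupling proteins and relatives passed, and none of the 8 carriers of other or unsettled substrate did (edgeR; 0 of either class at an unadjusted p under 0.05, and 0 with DESeq2). Ucp2, which immune cells and stressed hepatocytes express, was at 40.4, 35.8 and 68.3 CPM in Fl/Fl 5, 7 and 9, 39.1 in the male library and 56.2, 57.9, 63.5 and 45.7 CPM in LKO 3, 4, 12 and 13 (log2 0.21 ± 0.22, adjusted p = 0.704). Macrophage and Kupffer markers summed to 245 to 358 CPM in female Fl/Fl and 274 to 346 in LKO, highest in Fl/Fl 9, and their part in Ucp2 was not tested. Slc25a30, a relative of the uncoupling proteins, was at 55.8 and 38.2 CPM in Fl/Fl 5 and 7, 127 in Fl/Fl 9, 48.6 in the male library and 36.8 to 51.5 in LKO (log2 -0.80 ± 0.41, adjusted p = 0.403). Without Fl/Fl 9 its log2 fold change was -0.16. The brain-enriched relatives Slc25a14 and Slc25a27 were scarce, at 1.67 ± 0.12 and 1.65 ± 0.36 CPM and at 2.81 ± 0.80 and 3.26 ± 0.26 CPM.

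Slc25a47, like Slc25a22, differed widely among the Fl/Fl livers. Fl/Fl 5 and 7 held 543 and 423 CPM of it, with 912 in Fl/Fl 9, 600 in the male library and 875, 761, 1089 and 807 CPM in LKO 3, 4, 12 and 13 (log2 0.50 ± 0.26, edgeR adjusted p = 0.398). Fl/Fl 9 lay inside the LKO range and Fl/Fl 5 and 7 below it. Without Fl/Fl 9 the log2 fold change was 0.87 (adjusted p = 0.0178), and without Fl/Fl 5 and 7 it was -0.06. Slc25a46, an outer membrane member of mitochondrial dynamics, was at 41.2 ± 0.79 and 37.9 ± 3.15 CPM. Slc25a34, Slc25a35, Slc25a43, Slc25a45, Slc25a48 and Slc25a53 had log2 fold changes between -0.23 and 0.42.

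Fl/Fl 9 stood at least 1.5 times above both Fl/Fl 5 and Fl/Fl 7 in 7 of the 44 carriers (15.9%, and 7.81% of all genes tested). These were Slc25a18, Slc25a22, Slc25a30, Slc25a32, Slc25a33, Slc25a47 and Ucp2. Slc25a33, a pyrimidine nucleotide carrier, was at 12.3, 6.87 and 21.2 CPM in Fl/Fl 5, 7 and 9 and 16.1 to 20.1 in LKO (log2 0.39 ± 0.35, edgeR adjusted p = 0.644). Fl/Fl 9 shared its low Arntl and high Dbp with LKO 12 and 13, in which Slc25a30 was at 36.8 and 42.4 CPM. It was at 51.5 and 38.5 CPM in LKO 3 and 4. For Slc25a22 and Slc25a18, LKO 3 and 4, of high Arntl, held more than 12 and 13, and for Slc25a32 they held less. For Slc25a33, Slc25a47 and Ucp2 the pairs overlapped. The male library, also of low Arntl, held 364, 60.6, 20.3 and 600 CPM of Slc25a22, Slc25a32, Slc25a33 and Slc25a47, above Fl/Fl 5 and 7. It lay between Fl/Fl 5 and 7 for Slc25a18, Slc25a30 and Ucp2. The part of the clock genes in the high values of Fl/Fl 9 was not tested. Without Fl/Fl 9, 7 carriers passed the threshold, all higher: Slc25a15, Slc25a22, Slc25a32, Slc25a44, Slc25a47, Slc25a51 and Ucp2. Without Fl/Fl 5 and 7, 1 passed, Slc25a30, which was lower (log2 -1.60, adjusted p = 0.0104).

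**Figure D4:**
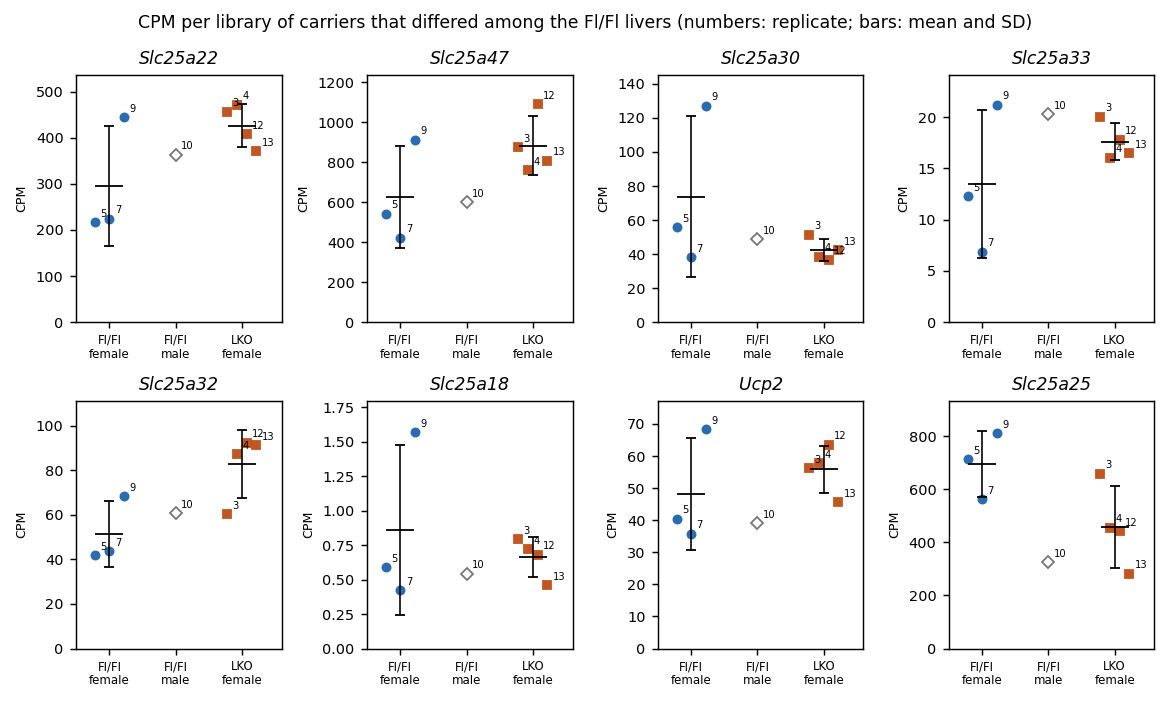
CPM (axes from 0) per library of the 7 carriers in which Fl/Fl 9 was at least 1.5 times both other female Fl/Fl livers, and of Slc25a25; replicate numbers stand beside the points and bars give mean and SD. Fl/Fl 9 lies inside the LKO range for Slc25a22, Slc25a47 and Slc25a32, and above each LKO library for Slc25a30, Slc25a33, Slc25a18 and Ucp2.

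**Figure D5:**
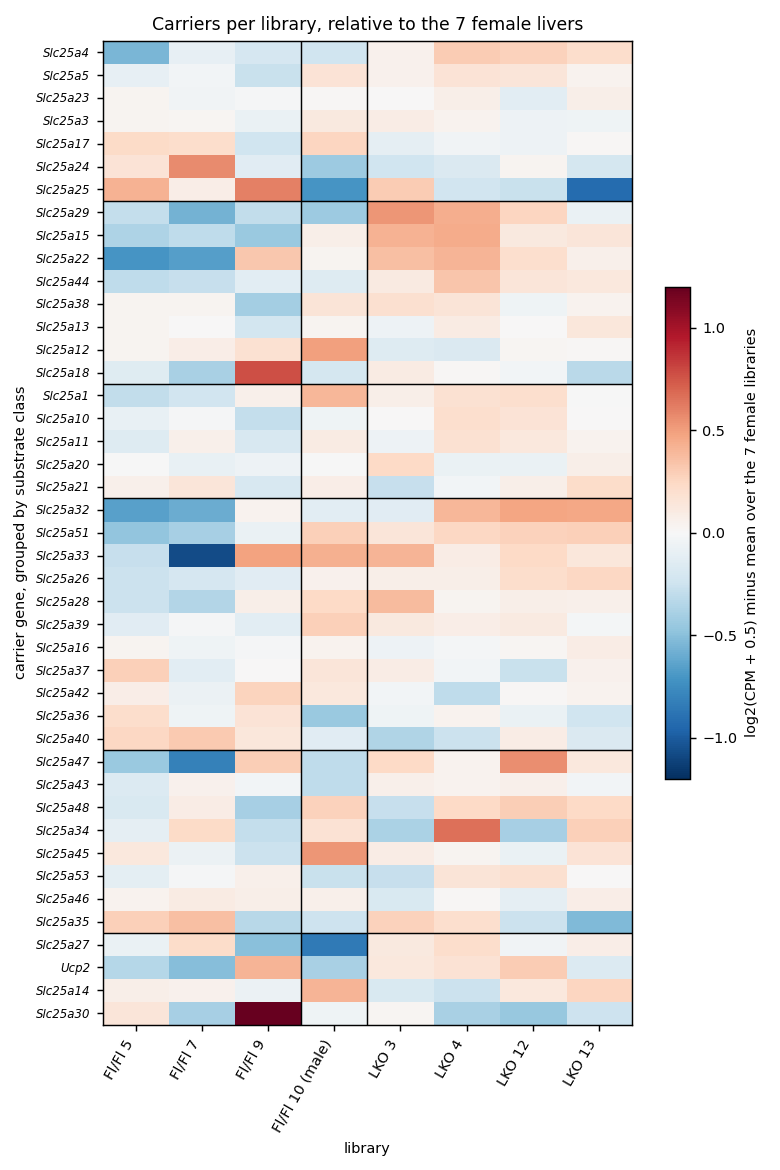
Log2(CPM + 0.5) of the tested carriers reported here in each library minus the gene's mean over the 7 female libraries, with lines between substrate classes and around the male library. Slc25a15 and Slc25a51 are blue in each female Fl/Fl library and red in each LKO library, while Slc25a22, Slc25a33 and Slc25a47 are red in Fl/Fl 9 too.

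The male Fl/Fl library is 1 liver and allows no test of sex. It lay within the LKO range in 19 of the 44 carriers (43.2%, and 44.6% of all genes tested). Fl/Fl 5 did so in 14 (31.8%, and 47.6% of genes), Fl/Fl 7 in 20 (45.5%, and 48.8%) and Fl/Fl 9 in 16 (36.4%, and 50.3%). For Slc25a51, Slc25a1 and Slc25a39 it stood above every female Fl/Fl library, at 164, 247 and 411 CPM. For Slc25a44, Slc25a29 and Slc25a4 it stayed below each LKO library.

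The genes that work beside the carriers gave 1 call among 79 tested genes of 8 lists, or 1.27%, which is no more than the 1.41% over all genes tested (54 fold changes, or 68.4%, positive, against 49.5% of all genes; median log2 0.13). Ppargc1b, a coactivator of mitochondrial and lipid genes, rose from 6.51, 4.05 and 6.09 CPM in Fl/Fl 5, 7 and 9 to 8.35, 11.2, 13 and 13.8 CPM in LKO 3, 4, 12 and 13. The groups did not overlap, and the male library held 9.27 CPM (log2 1.06 ± 0.21, edgeR adjusted p = 0.0410). The call was lost without Fl/Fl 5 (adjusted p = 0.121), Fl/Fl 7 (0.114), LKO 4 (0.127), LKO 12 (0.0918) or LKO 13 (0.103), at log2 fold changes of 0.87 to 1.19, and with no sex term (0.84, 0.451). Ppargc1b also missed the threshold with limma voom (log2 1.07, adjusted p = 0.0507) and with limma trend on log2(FPKM + 1) (0.71, 0.0758). Without Fl/Fl 5 and 7 together its log2 fold change was 0.92. Esrra, the nuclear receptor that such coactivators bind, was at 17.2 ± 1.20 and 23.0 ± 1.08 CPM (log2 0.42 ± 0.09, adjusted p = 0.0521). Esrra was 1 of 8 regulators, of which Ppargc1b alone passed, with 5 fold changes positive and 3 negative.

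Among 9 genes of the urea cycle and nitrogen entry, none passed and 7 fold changes were positive (median log2 0.23). Asl, which cleaves argininosuccinate, held 490, 580 and 396 CPM in Fl/Fl 5, 7 and 9 and 699, 935, 709 and 637 CPM in LKO 3, 4, 12 and 13, with no overlap (log2 0.61 ± 0.16, edgeR adjusted p = 0.0978). None of 6 shuttle genes passed (median 0.10), and the aspartate aminotransferase Got1 held 527, 611 and 528 CPM in Fl/Fl 5, 7 and 9 and 702, 1030.4, 696 and 709 CPM in LKO 3, 4, 12 and 13, LKO 4 being the highest (log2 0.50 ± 0.15, adjusted p = 0.132). None of 9 pyruvate and citrate genes passed, although all 9 fold changes were positive (median 0.21). The smallest p was that of the gluconeogenic enzyme Pck1, at 3885, 3717 and 4428 CPM in Fl/Fl 5, 7 and 9 and 5759, 6634, 4576 and 5238 CPM in LKO 3, 4, 12 and 13, where LKO 12 came nearest to Fl/Fl 9 (log2 0.47 ± 0.14, adjusted p = 0.119). None of 10 carnitine and fatty acid entry genes passed (median 0.03), and the acyl-CoA dehydrogenase Acadvl held 155, 161 and 172 CPM in Fl/Fl 5, 7 and 9, 207 in the male library and 214, 195, 191 and 194 CPM in LKO 3, 4, 12 and 13 (log2 0.29 ± 0.08, adjusted p = 0.128).

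Carriers reach the inner membrane through the small Tim chaperones and the TIM22 complex. None of 12 import genes passed (10 positive, median log2 0.13). The chaperone Timm13 was at 23.4, 26.2 and 34.7 CPM in Fl/Fl 5, 7 and 9, 59.9 in the male library and 47.2, 44.9, 45.3 and 37.5 CPM in LKO 3, 4, 12 and 13 (log2 0.64 ± 0.14, edgeR adjusted p = 0.0526). None of 15 porins and other transport genes outside the naming rule of the carriers passed (median log2 -0.03). Among them Mtch1, an outer membrane relative of the carriers, was at 60.2, 66.2 and 66.5 CPM in Fl/Fl 5, 7 and 9. It was at 78.3, 89.0, 88.1 and 77.5 CPM in LKO 3, 4, 12 and 13 (log2 0.37 ± 0.09, edgeR adjusted p = 0.0738). None of 10 iron and heme genes passed (median log2 0.14). Alas1, which starts heme synthesis from the glycine that Slc25a38 helps supply, held 368, 367 and 392 CPM in Fl/Fl 5, 7 and 9, 764 in the male library and 537, 441, 579 and 599 CPM in LKO 3, 4, 12 and 13, the male liver being the highest (log2 0.52 ± 0.11, adjusted p = 0.0530). At an unadjusted p under 0.05 with edgeR there were 19 genes of the 8 lists (24.1%, and 16.1% of all genes tested): 2 urea cycle, 1 shuttle, 4 pyruvate and citrate, 1 carnitine, 2 import, 2 porin, 2 iron and heme and 5 regulator genes, of which 4 regulators were higher and 1 lower. DESeq2 put 12 of the 79 past the threshold (5.39% of all genes), all higher: Asl, Got1, Pck1, Acadvl, Timm10, Timm13, Mtch1, Alas1, Hnf4a, Esrra, Ppargc1a and Ppargc1b. Limma voom put 1 there, Timm13 (1.3% of all genes).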

How the data were processed

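The 8 total RNA libraries of liver were made with the NEBNext Ultra kit, per the labels' protocols. Tools named there by the submitters' processing notes, with no roles, are featureCounts, HTSeq, STAR, fastp, edgeR, DESeq and DESeq2, and the build is mm10. For strand setting and annotation release, nothing is given in the sources used here. Per the file headers, the authors deposited whole-number read counts per gene, a normalised signal (used only to see which libraries their fold changes hold), FPKM, and their own log2 fold changes with p-values.

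Counts were tested in R 4.3.3 with edgeR 4.0.16 (filterByExpr by genotype, TMM, robust quasi-likelihood F test, terms for genotype and sex, all 8 libraries), two-sided, with Benjamini-Hochberg adjustment over 16420 genes. The 1 male library is absorbed by the sex term. Standard errors are |log2 fold change| over root F. The biological coefficient of variation was 20.4%. The floor of 3 reads covers counting error only. The procedure was tested on simulated data.

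The carriers and gene lists were chosen with earlier results of these data known. Values per library are given for carriers past the threshold, the 8 others with the smallest p, the 3 of highest FPKM in female Fl/Fl, members of a pair in which 1 passed, and, of each partner list, members past the threshold or the 1 with the smallest p. Arntl, Dbp, Fos, Jun and Junb are given once. The values of 1 tested carrier are not reported here, in text or figures, and it is kept in the counts. Other carriers, Esrra, Jun and Junb were picked after their values were seen. Motifs were searched in RefSeq promoter windows (GRCm38.p6). The alternatives were other scalings, filters, DESeq2 1.42.0, limma 3.58.1 (voom, and log2(FPKM + 1)), a clock covariate, and libraries left out.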

Additional observations from a re-analysis of the deposited data

Results flagged for a closer look

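In 88 groups of 4 libraries (44 carriers, each in Fl/Fl with the male library and in LKO), 8 held a library that lay far from the other 3 by Dixon's test. Chance alone marks about 1 in 20 groups. Fl/Fl 9 was the library in 4 of them. It held 229 CPM of the aspartate/glutamate exchanger Slc25a13 (the others 267 to 272), 49.1 CPM of the peroxisomal carrier Slc25a17 (67.3 to 69.9), 1.57 CPM of the glutamate carrier Slc25a18 (0.423 to 0.587) and 68.3 CPM of Ucp2 (35.8 to 40.4). LKO 3 was the library in 3, with 21.3 CPM of mitoferrin 2, Slc25a28 (16.6 to 17.2), 60.3 CPM of the folate carrier Slc25a32 (87.3 to 92.4) and 13.8 CPM of Slc25a48 (19.9 to 20.7). LKO 4 held 116 CPM of Slc25a44 (99.1 to 101).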

How the results depend on the processing

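Besides the 232 genes, 2 carriers, carrier median of log2 0.16 and 1 partner gene reported, other settings gave these values. With no sex term they were 1 gene, 0 carriers, 0.11 and 0 partner genes. With no filter beyond 1 read they were 462, 4, 0.12 and 6, the median then covering the near-silent carriers too. DESeq2 gave 885 genes, 6 carriers and 12 partner genes. Limma trend on log2(FPKM + 1) gave 140, 1, 0.0994 and 0, on a scale that understates the change of low genes. Without Fl/Fl 5 and 7 together there were 26 genes, 1 carrier and 0 partner genes. The clock covariate gave 319 genes, 4 carriers and 3 partner genes, so that the count rose among all genes too. With each library left out in turn the counts ran from 4 to 727 genes, 0 to 7 carriers and 0 to 5 partner genes, the median from 0.10 to 0.16 and the carriers with no overlap from 10 to 20. The cause was not tested.

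Of 342 refits of 18 carriers under 19 alternatives, 312 kept direction and side of the threshold, 14 lost the threshold, 13 passed it and 3 changed sign. The fit of the 7 female libraries alone and that without Fl/Fl 10 are the same fit, counted separately among the 19. All 14 losses were of the 2 called carriers, Slc25a15 in 6 of 19 alternatives and Slc25a51 in 8 of 19. The other carriers had no call to lose. The 3 changes of sign were without Fl/Fl 5 and 7 together, which leaves 1 female Fl/Fl library: Slc25a47 at log2 -0.055, Slc25a22 at -0.071 and Slc25a33 at -0.28. No paired analysis was possible because the genotypes share no replicate number. Carriers near 1 CPM rest on few reads, and 25 of the 47 overlap another annotated gene, whose reads cannot be told apart without strand.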
